A study of Sus scrofa with 11 samples.

Results

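ESRRA, PPARD, PPARGC1A and FNIP1 are 4 regulators of mitochondrial content and oxidative metabolism in muscle. They were taken by gene symbol, and each symbol was carried by 1 of the 25322 gene rows. They were chosen by their log2 fold changes and adjusted p between the groups in an earlier analysis of the same counts, so those differences are given here as a description without a test. RNA came from the longissimus lumborum, a back muscle, of 11 female pigs aged 23 weeks, untreated as far as the labels say, whose breed is not given in the sources used here. The pigs fell into groups by the histology of that muscle. The 7 fibre1 pigs had over 17% type I fibres (slow, oxidative) and under 70% type IIB fibres (fast, glycolytic). The 4 fibre2B pigs had under 8% type I and over 70% type IIB fibres. The comparison asks how these regulators and the genes of their pathway differ between muscles of unlike fibre type composition.

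ESRRA encodes estrogen-related receptor alpha, an orphan nuclear receptor that binds the promoters of many respiratory chain and citrate cycle genes. PPARD encodes the fatty acid sensing receptor PPAR delta, which acts on genes of lipid use. PPARGC1A encodes PGC-1 alpha, a coactivator that binds both receptors and is induced by contraction and by the energy sensor AMPK. FNIP1 encodes a partner of folliculin that binds AMPK, and mice without it have redder, more oxidative muscle. Slow fibres are known for dense mitochondria.

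Total counts ran from 14832736 to 36374829 per pig, and scaling factors by the trimmed mean of M values (TMM) from 0.718 to 1.19. The 10 most abundant nuclear genes took 45.2% and 44.1% of the counts in fibre1 pigs 5 and 6 and 29.5% to 36.8% in the other 9 pigs. Levels are given as CPM, the count scaled by library size and TMM factor. CPM does not correct for gene length, so levels were not compared between genes. The exception is the rank of PPARGC1A among all genes tested, which gene length also affects. In tissue RNA, fewer cells of a type and less RNA per cell cannot be told apart. Of 9 muscle fibre markers 5 had an ID, and all 5 were counted, with a summed level of 57405 CPM or more in each pig. All 4 regulators passed the filter on low counts. The isoform table added nothing for them: for each, 1 isoform row carried the gene's count to within 1 count in every pig, with a lowest share of 99.76%.

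ESRRA, the first of the receptors, was higher in every fibre1 pig than in any fibre2B pig. Its lowest, median and highest levels in fibre1 were 75.3, 89.2 and 122 CPM. In fibre2B it had 72.6 CPM in pig 10, 48.4 in pig 11, 47.4 in pig 14 and 61.7 in pig 16. The groups were separated by a narrow gap, between fibre1 pig 6 and fibre2B pig 10. The means were 90.5 ± 15.4 CPM (SD, n = 7) and 57.5 ± 11.97 CPM (SD, n = 4), a log2 fold change of 0.65 ± 0.16 (SE, fibre1 minus fibre2B). Counts of 835 to 3529 per pig left a counting error well under the spread between pigs. The SD of log2 CPM was 0.23 in fibre1 and 0.29 in fibre2B, where counting alone gives 0.032 and 0.042.

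PPARD, the lipid-sensing receptor, had a wide spread in fibre1 and a narrow one in fibre2B. In fibre1 it ran from 5.14 CPM in pig 17 over a median of 8.99 to 15.6 CPM in pig 6, a 3.04-fold range. In fibre2B it had 5.14 CPM in pig 10, 5.98 in pig 11, 6.70 in pig 14 and 5.52 in pig 16, a 1.30-fold range. Fibre1 pig 17 lay within the range of the fibre2B pigs and the other 6 fibre1 pigs lay above it. The means were 9.47 ± 3.41 (SD, n = 7) and 5.83 ± 0.671 CPM (SD, n = 4), a log2 fold change of 0.70 ± 0.25 (SE). This was close to that of ESRRA, with a wider error. Its highest levels were in fibre1 pigs 6 and 5, the pigs with the highest share on the 10 most abundant genes. Without both pigs the log2 fold change of PPARD was 0.44 and that of ESRRA 0.70. With that share as a covariate they were 0.53 and 0.72.

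PPARGC1A, the coactivator, was near the detection limit and showed no clear difference. It had 96 counts in all 11 pigs together, from 3 to 21 per pig, and its mean level ranked in the lowest 0.962% of the 11329 genes tested. In fibre1 it ran from 0.162 CPM in pig 17 over a median of 0.254 to 0.587 CPM in pig 1. In fibre2B it had 0.413 CPM in pig 10, 0.173 in pig 11, 0.965 in pig 14 and 0.521 in pig 16. The groups overlapped over most of their range. The 17 counts of fibre2B pig 14, the highest level, have an exact 95% Poisson interval of 0.562 to 1.55 CPM, which covers counting error only. The 3 counts of fibre1 pig 17 have one of 0.0335 to 0.474 CPM. The log2 fold change was -0.57 ± 0.47 (SE), and -0.0941 without fibre2B pig 14. In fibre1 the SD of log2 CPM was 0.53, close to the 0.51 that counting alone gives, and in fibre2B it was 0.82 against 0.46.

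FNIP1, the AMPK and folliculin partner, was lower in fibre1. It ran from 22.3 CPM in pig 6 over a median of 26.4 to 33.5 CPM in pig 12 of fibre1. In fibre2B it had 43.2 CPM in pig 10, 36.8 in pig 11, 31.4 in pig 14 and 35.01 in pig 16. Fibre1 pig 12 exceeded fibre2B pig 14, and no other fibre1 pig reached the fibre2B range. The means were 26.1 ± 3.73 (SD, n = 7) and 36.6 ± 4.90 CPM (SD, n = 4), a log2 fold change of -0.49 ± 0.14 (SE). Its coefficient of variation was 14.3% in fibre1 and 13.4% in fibre2B.

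Matrix and blood markers ran higher in fibre2B, with overlap between the groups. Of 11 fibroblast and matrix markers 10 had an ID and all 10 were counted, with a summed level of 516 to 1033 CPM in fibre1 and 785 to 1485 CPM in fibre2B. Of 5 blood markers 3 had an ID and all 3 were counted, at 137 to 467 against 423 to 955 CPM. None of the markers with an ID was at 0 in every pig. By edgeR, 2 of 9 tested matrix markers (DCN and LUM) and 1 of 2 tested blood markers (HBB) were higher in fibre2B. Over all genes tested 4.63% were called in that direction. Of the 9 matrix markers 7 were not called and 2 had positive values, with a median of -0.48. The matrix list held 0 calls when fibre2B pig 14 was dropped, a fit with 0 calls among all genes. It also held 0 when fibre1 pigs 5 and 6 were both dropped. The blood list held 0 calls on dropping any 1 fibre2B pig, or fibre1 pig 1, 2 or 17. The 5 muscle fibre markers ran the other way from the matrix and blood markers. They were at 75539 to 162390 CPM in fibre1 and 57405 to 87445 CPM in fibre2B. Fibre1 pigs 5 and 6 were at 162390 and 153700 CPM, and no other fibre1 pig was above 90796 CPM. The median log2 fold change was 0.40, and 0.17 without both pigs. Of the 5, 0 were called by edgeR (1 at an unadjusted p under 0.05), 1 by DESeq2 and 0 by limma-voom. Of the adipocyte, endothelial and immune markers 4, 6 and 6 were tested and 0 called by edgeR (0, 3 and 1 unadjusted, 0 in limma-voom), with median log2 fold changes of 0.25, 0.19 and -0.19. DESeq2 called 2 endothelial markers higher in fibre1 and 1 lower, and 0 of the other 2 lists. The part of any of these cell types in the levels of the regulators was not tested.

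**Figure D1:**
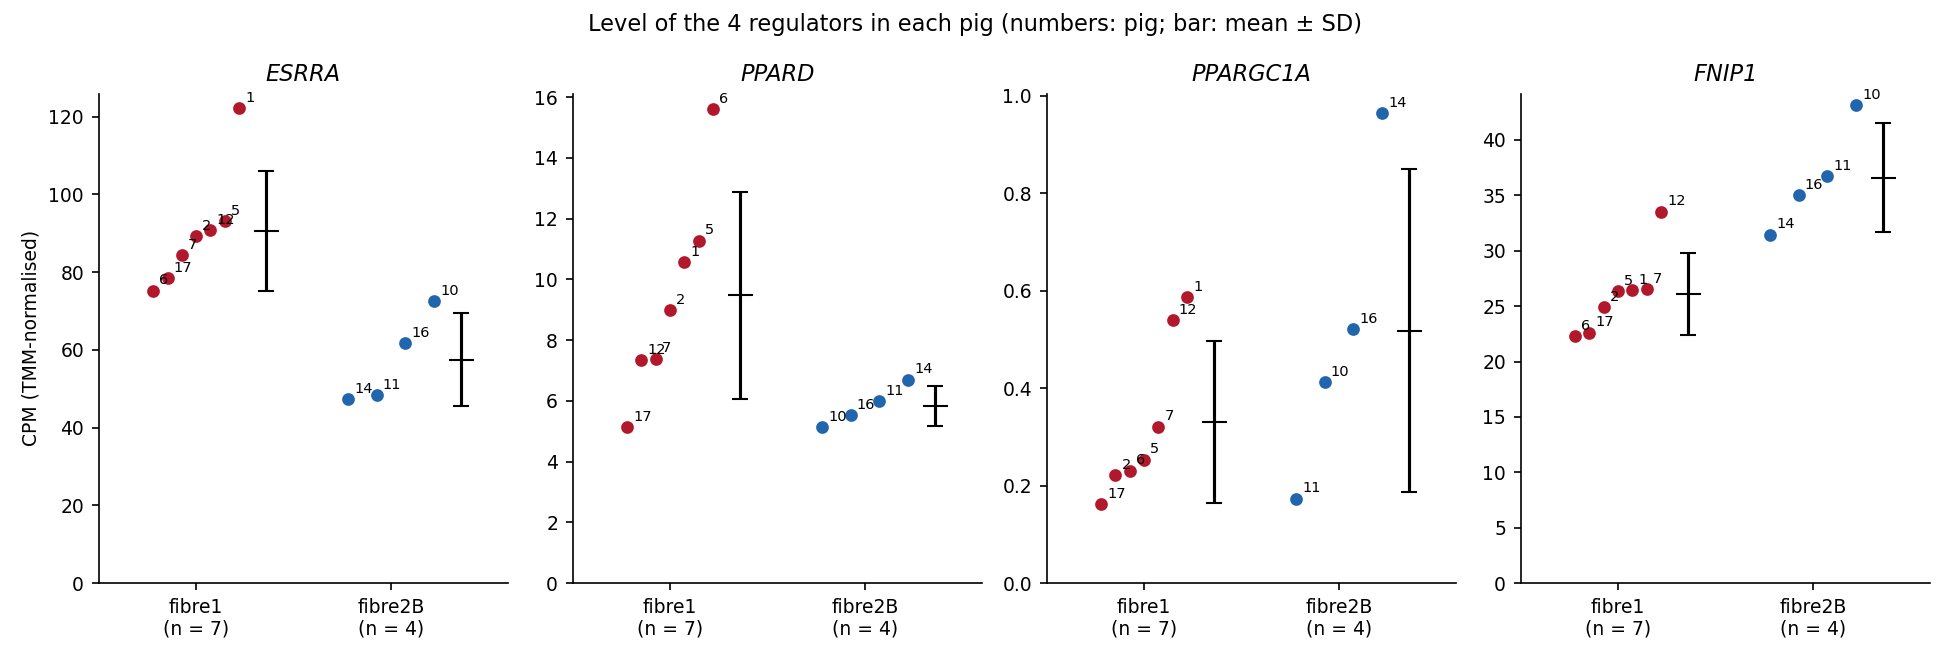
CPM after TMM scaling (vertical axes, from 0) of the 4 regulators in each pig, ordered by level within a group and labelled with the pig's number, with the mean and SD beside the points. ESRRA does not overlap between the groups, PPARD and FNIP1 overlap through fibre1 pigs 17 and 12, and PPARGC1A stays under 1 CPM in all 11 pigs.

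Among all genes tested, edgeR's quasi-likelihood test called 9.01% at a Benjamini-Hochberg adjusted p of 0.05, and of the 4 regulators it called ESRRA and FNIP1. By direction, 4.38% of all genes were called higher in fibre1, like ESRRA, and 4.63% higher in fibre2B, like FNIP1. With library totals in place of TMM the split of 496 against 525 calls became 53 against 104. The groups did not overlap in 7.55% of all genes tested (3.4% higher in fibre1, 4.15% higher in fibre2B) and in 1 of the 4 regulators, ESRRA. The contrast helped to choose these genes, so nothing is read from either count. The calls and adjusted p of the regulators that follow are no test of them either. They only describe how the fit behaves under other settings. Both calls were lost with library totals only (adjusted p of 0.150 and 0.0732), and that of FNIP1 also with upper-quartile factors (0.0501), without the filter (0.0652) and with the share taken by the 10 most abundant genes as covariate (0.0786). They were sensitive to single pigs as well. That of ESRRA held only when the pig left out was fibre1 pig 6, 7, 12 or 17 or fibre2B pig 10, and that of FNIP1 only without fibre1 pig 12. PPARD was called without fibre1 pig 17. Without fibre2B pig 14 edgeR called 0 of 11538 genes tested, so every edgeR call was lost in that fit.

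Ratios of counts within a pig are free of the scaling. The ratio of ESRRA to FNIP1 counts was 2.71 to 4.62 in fibre1, with a median of 3.47. In fibre2B it was 1.68 in pig 10, 1.32 in pig 11, 1.51 in pig 14 and 1.76 in pig 16. The means were 3.50 ± 0.578 (SD, n = 7) and 1.57 ± 0.198 (SD, n = 4), and the gap between the groups was wider than for either gene alone. The ratio of PPARD to FNIP1 ran from 0.219 to 0.699 in fibre1 and from 0.119 to 0.213 in fibre2B, so it too did not overlap, by a small margin between fibre1 pig 12 and fibre2B pig 14. The ratio of ESRRA to PPARD was 4.83 to 15.3 in fibre1 and 7.08 to 14.1 in fibre2B, with the fibre2B range inside that of fibre1. These ratios rest on the same counts as the levels and carry no test. The regulators were chosen with their differences known, and FNIP1 differs in the opposite direction to ESRRA and PPARD. The separation of the 2 ratios to FNIP1 follows from that choice, so nothing is read from it.

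**Figure D2:**
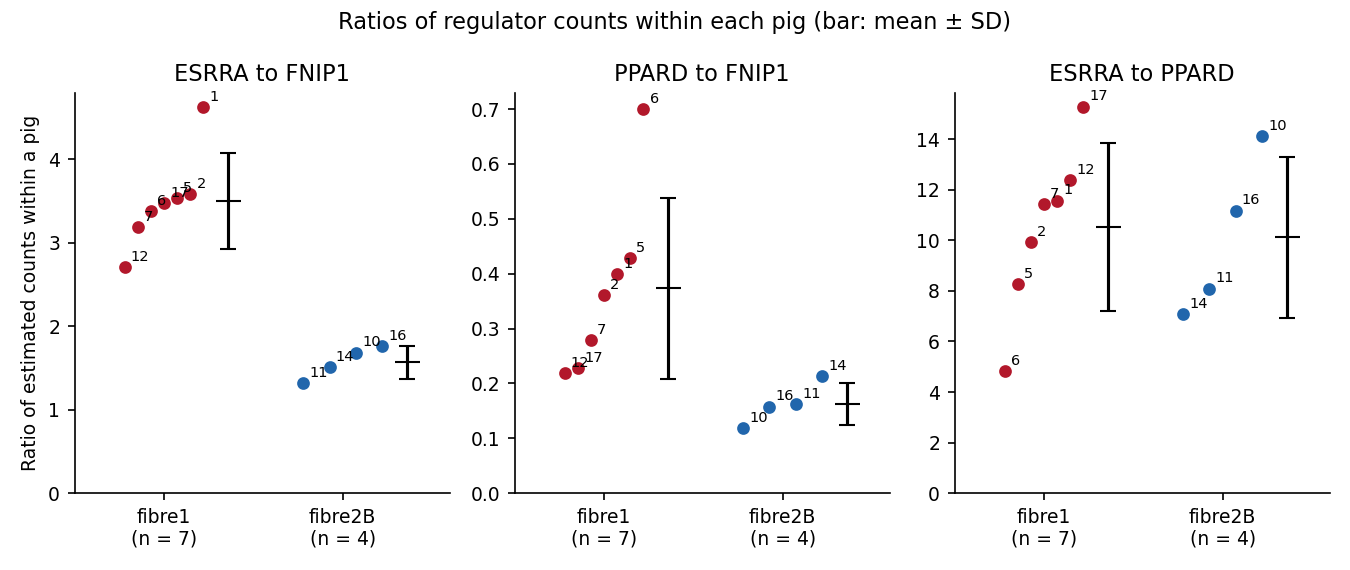
Ratio of estimated counts within each pig (vertical axes, from 0) for 3 pairs of regulators, ordered by value within a group and labelled with the pig's number, with the mean and SD beside the points. The ratio of ESRRA to FNIP1 lies at 2.71 or above in fibre1 and at 1.76 or below in fibre2B, while that of ESRRA to PPARD overlaps. The genes were chosen with their differences between the groups known, so the separation is a description only.

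The paralogs of the 4 regulators were low or showed no difference that passed. ESRRB, the paralog of ESRRA known from stem cells, had 1 count in all pigs, and ESRRG, a paralog of oxidative tissues, had 70 counts, from 1 to 15 per pig. PPARA, the liver-type fatty acid receptor, had 69 counts, and neither it nor ESRRG or ESRRB passed the filter. PPARG, the receptor of fat cells, had 1.55 ± 0.326 (SD, n = 7) against 1.87 ± 0.728 CPM (n = 4), which gave -0.26 ± 0.27 on the log2 scale (SE, adjusted p = 0.549 by edgeR), and 0.0314 without fibre2B pig 14. PPARGC1B, the nearest relative of PPARGC1A, had 0.644 ± 0.297 against 0.373 ± 0.294 CPM (0.73 ± 0.49, adjusted p = 0.338), and ran from 0.47 without fibre2B pig 14 to 1.37 without fibre2B pig 10. PPRC1, a relative induced in growing cells, had 8.31 ± 1.81 against 7.37 ± 2.79 CPM (0.18 ± 0.22, adjusted p = 0.633), and -0.0363 when scaled by library totals only. Without single pigs PPRC1 ran from 0.0627 (fibre2B pig 16) to 0.48 (fibre2B pig 14). PERM1, FNIP2 and FLCN were not analysed here.

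Of the 16 tested genes of the receptor and coactivator list, 0 passed over all genes by edgeR, DESeq2 or limma-voom, and 2 had an unadjusted p under 0.05 in edgeR. Those with the smallest p were NCOR1, a corepressor of nuclear receptors (log2 fold change 0.59 ± 0.24, adjusted p = 0.122), RXRB, a shared partner of the PPARs (0.33 ± 0.14, adjusted p = 0.129), and the acetyltransferase gene EP300 (0.30 ± 0.16, adjusted p = 0.223). Over the list the median log2 fold change was 0.16, beside 0.0073 over all genes tested. With library totals only, which put the median of all genes at -0.19, the medians of 4 lists turned negative: -0.0759 for these genes, -0.0159 for the FNIP1, folliculin and AMPK list, -0.12 for the PPAR delta lipid targets and -0.12 for nuclear oxidative phosphorylation.

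Genes of the AMPK and growth-signalling arm around FNIP1 were higher in fibre1 where they passed. Among 21 tested genes edgeR called 2 higher in fibre1 and 0 lower, and the median was 0.22. Over all genes the same directions held 4.38% and 4.63%. STK11, which encodes the kinase LKB1 that activates AMPK, had 41.5 CPM in fibre1 and 19.4 in fibre2B (1.10 ± 0.18 on the log2 scale, adjusted p = 0.0159 by edgeR). RPTOR, a subunit of the growth-promoting kinase complex mTORC1, had 11.6 against 6.38 CPM (0.86 ± 0.18, adjusted p = 0.0191). The kinase gene MTOR itself had 0.65 ± 0.20 (adjusted p = 0.0588). STK11 and RPTOR did not overlap between the groups. The STK11 call was lost without fibre2B pig 14 (adjusted p = 0.0574), and that of RPTOR without fibre2B pig 10, 14 or 16 (0.0546 to 0.0693). The fit without fibre2B pig 14 called 0 of 11538 genes, and 0.0574 was its lowest adjusted p. RPTOR also lost it with library totals only (0.0879).

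Among genes that copy and transcribe the mitochondrial genome, POLG rose and most others had negative values. POLG, the mitochondrial DNA polymerase, had 39.7 CPM in fibre1 and 18.3 in fibre2B (1.11 ± 0.19, adjusted p = 0.0159), without overlap. TWNK, the helicase of the same replication machinery, had 0.73 ± 0.22 (adjusted p = 0.0517), and GABPB1, a subunit of the factor NRF2 that acts on respiratory genes, had -0.60 ± 0.26 (adjusted p = 0.147). Of the 11 tested, 1 was higher in fibre1 and 0 in fibre2B, 3 had positive values, and the median was -0.10. Beside these stand 4.38% and 4.63% of all genes called, and 5741 of 11329 values positive. The POLG call was lost without fibre2B pig 14 (adjusted p = 0.0574), as was every other call.

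Genes upstream of PPARGC1A were mostly positive, and 1 of 12 passed. It was MEF2C, a muscle transcription factor that acts on the PPARGC1A promoter, at 31.1 against 16.9 CPM (0.88 ± 0.22, adjusted p = 0.0304). The calcineurin subunit gene PPP3CB had 0.32 ± 0.15 (adjusted p = 0.170) and the calcium-dependent kinase gene CAMK2A 0.59 ± 0.28 (adjusted p = 0.175). Of the 12 genes 10 had positive values, with a median of 0.29. Over all genes tested 5741 of 11329 values were positive, and 4.38% of the genes were called higher in fibre1. MEF2C kept its call when fibre1 pig 1, 7, 12 or 17 or fibre2B pig 11 was left out and lost it without any other pig (0.0528 to 0.0891). It also lost it with library totals only (0.132) and with the share taken by the 10 most abundant genes as covariate (0.0548).

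Mitochondrial fusion and clearance genes went both ways. MFN2, a fusion protein of the outer membrane that PGC-1 alpha and ESRRA are known to induce, had 88.3 CPM in fibre1 and 36.2 in fibre2B (1.29 ± 0.24, adjusted p = 0.0159), without overlap. PINK1, a kinase that marks damaged mitochondria, had 329 against 117 CPM (1.49 ± 0.34, adjusted p = 0.0248). BNIP3L, a receptor for mitochondrial clearance, was lower in fibre1 at 18.6 against 26.8 CPM (-0.53 ± 0.15, adjusted p = 0.0455). Of the 9 genes tested 2 were higher in fibre1, 1 was higher in fibre2B and 6 did not pass, with a median of 0.31. The shares over all genes tested were 4.38% and 4.63% in these directions. MFN2 lost its call without fibre2B pig 14 (0.0639), where 0 genes were called in all, and PINK1 without fibre2B pig 14 or 16 (0.0868 and 0.0681). BNIP3L kept its call in the fits that left out fibre1 pig 12 or 17 and in no other fit without 1 pig, and lost it with library totals only, without the filter and with the share covariate (0.0634 to 0.0803). Without fibre1 pigs 5 and 6 together MFN2, PINK1, POLG and RPTOR lost their calls (0.0502 to 0.0797).

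Of the lipid genes that PPAR delta is known to induce, PDK4 and CAT had negative values and HADHA a positive one, and none passed. Of 17 tested 0 passed in edgeR, with 3 at an unadjusted p under 0.05, while DESeq2 called 1 in each direction and limma-voom 0. PDK4, a kinase that turns off pyruvate dehydrogenase and a classic PPAR delta target, had 42.7 against 252 CPM (-2.56 ± 0.77, adjusted p = 0.0542), with 707 CPM in fibre2B pig 14. Without that pig PDK4 had -1.23 (adjusted p = 0.336), and without fibre1 pig 12 it had -3.05 (0.026). HADHA, a subunit of the fatty acid oxidation enzyme of long chains, had 0.62 ± 0.22 (adjusted p = 0.0879). CAT, the peroxide-degrading enzyme catalase, had -0.65 ± 0.24 (adjusted p = 0.0948), and -0.39 without fibre2B pig 11. The median over the list was 0.11, with 10 of 17 values positive, beside 5741 of 11329 over all genes tested. It turned to -0.0941 (6 of 17) without fibre1 pig 1 and to -0.0067 (8 of 17) without fibre2B pig 14.

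**Figure D3:**
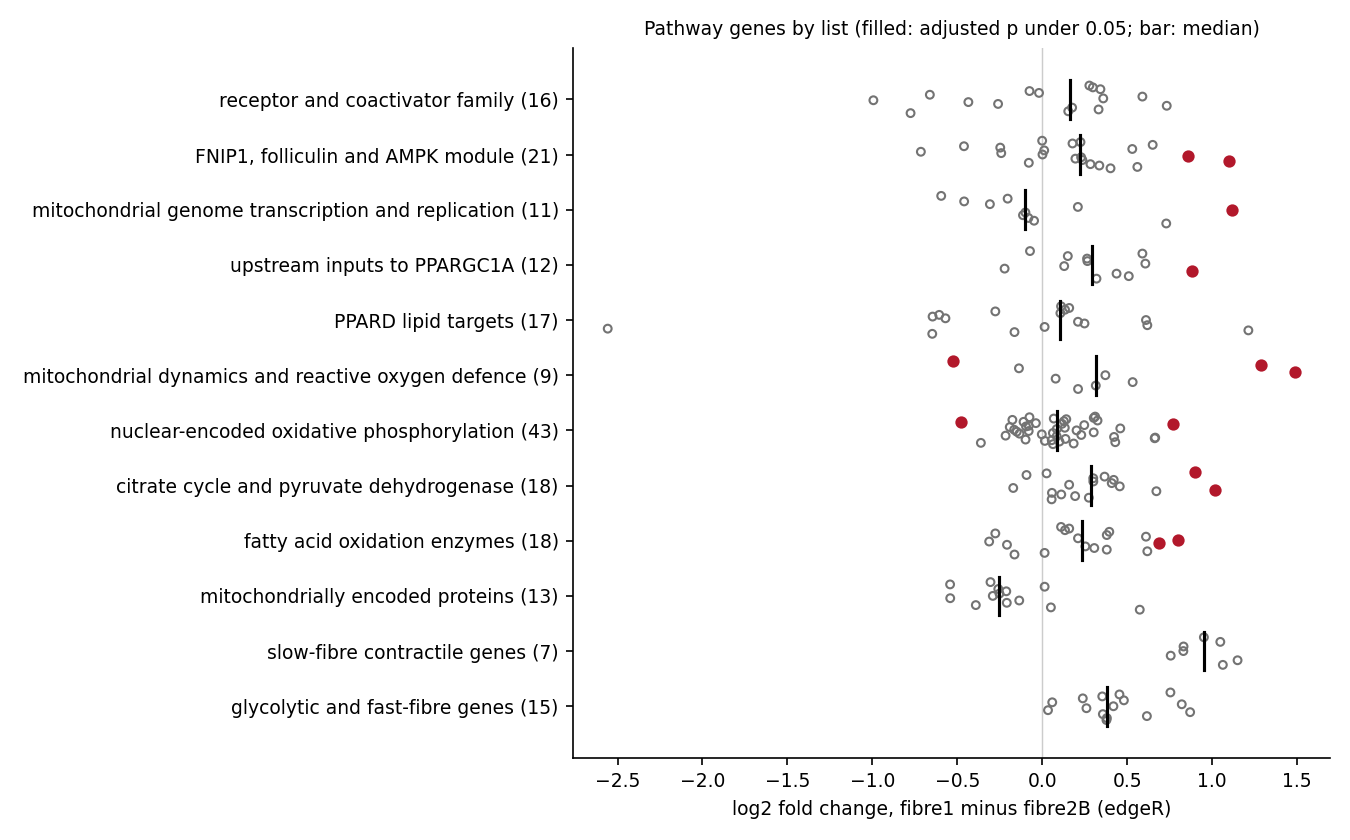
Log2 fold change between fibre1 and fibre2B (horizontal axis, edgeR) of each tested gene of 12 lists, with the number tested in brackets, filled points for genes past an adjusted p of 0.05 and a bar at each list's median. The slow-fibre list has the highest median, 0.95, with 0 calls. POLG, STK11 and PINK1 have the highest values of their lists, with MFN2 in the list of PINK1 at 1.29. PDK4, at -2.56 and not called, has the lowest value of the PPAR delta lipid targets.

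In the citrate cycle and pyruvate dehydrogenase list 2 of 18 genes passed, both higher in fibre1, where 4.38% of all genes tested passed in that direction, and the median was 0.29. OGDH, the first subunit of oxoglutarate dehydrogenase, was at 246 against 122 CPM (1.02 ± 0.26, adjusted p = 0.0328). PDHA1, of pyruvate dehydrogenase, had 0.67 ± 0.27 (adjusted p = 0.115). Among 18 fatty acid oxidation genes CRAT, which exchanges acetyl groups with carnitine (714 against 411 CPM, 0.80 ± 0.21, adjusted p = 0.0373), and the isomerase gene ECI2 (0.69 ± 0.20, adjusted p = 0.0479) were higher in fibre1, again 2 of 18. Of 43 nuclear genes of oxidative phosphorylation NDUFA10 of complex I was higher in fibre1 (0.77 ± 0.22, adjusted p = 0.0438) and COX7A2 of complex IV higher in fibre2B (-0.48 ± 0.13, adjusted p = 0.0402). That is 1 of 43 in each direction, beside 4.38% and 4.63% of all genes tested. SDHA of complex II had 0.66 ± 0.21 (adjusted p = 0.0657), and the median of the 43 was 0.084, from 0.0265 without fibre1 pig 5 to 0.157 without fibre2B pig 10.

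The calls of OGDH, CRAT, ECI2, NDUFA10 and COX7A2 were lost in several fits without 1 pig. OGDH and CRAT kept theirs on leaving out fibre1 pig 7, 12 or 17, or fibre2B pig 11. COX7A2 was still called when the pig left out was fibre1 pig 12, fibre1 pig 17 or fibre2B pig 11. ECI2 and NDUFA10 kept theirs only without fibre1 pig 7 or 12. The adjusted p in the other fits without 1 pig was 0.0505 to 0.152. With library totals only, and with the share taken by the 10 most abundant genes as covariate, 0 genes of these 3 lists passed (adjusted p of the 5 genes 0.0523 to 0.119). ECI2 was not called by limma-voom (0.0546).

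Of 13 mitochondrially encoded protein genes 0 passed in edgeR, DESeq2 or limma-voom and 0 had an unadjusted p under 0.05 in edgeR, with 3 positive values and a median of -0.25. The smallest p belonged to ND2 (-0.54 ± 0.37), ND6 (0.57 ± 0.45) and ATP6 (-0.31 ± 0.25), with adjusted p of 0.349, 0.414 and 0.440. Without fibre2B pig 16 the list's median turned to 0.0187 with 9 of 13 values positive, and ND2 had -0.0529, ATP6 -0.14. ND6 ran from 0.30 without fibre1 pig 12 to 0.996 without fibre2B pig 10. All 7 tested slow-fibre contractile genes had positive values with 0 calls in edgeR (4 at an unadjusted p under 0.05), 1 in DESeq2 and 0 in limma-voom, as did all 15 glycolytic and fast-fibre genes with 0, 2 and 0 (4 unadjusted). Over all genes tested 5741 of 11329 values were positive. TNNT1 and TNNI1 of the slow troponin complex had 1.06 ± 0.41 and 1.15 ± 0.45 and the stretch-related gene ANKRD2 0.95 ± 0.39 (adjusted p of 0.107, 0.112 and 0.126). The glycolytic enzyme gene PKM had 0.87 ± 0.31, MYBPC2 of the fast thick filament 0.82 ± 0.33 and the fast calcium pump gene ATP2A1 0.75 ± 0.34 (adjusted p of 0.085, 0.119 and 0.165). The median over the glycolytic and fast-fibre list was 0.38, and 0.21 without fibre1 pigs 5 and 6, where 13 of the 15 values were positive. With library totals 12 of the 15 were positive, while the 7 slow-fibre values stayed positive in every fit run.

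The next question was whether each regulator followed the oxidative genes from pig to pig. The mean of each group was subtracted, so the difference between the groups, which had chosen the regulators, did not enter. For each of 6 lists the mean log2 CPM of its tested genes was set against the log2 CPM of each regulator over 11 pigs, 24 relations in all, tested two-sided by exact permutation, over all 120960 orders of the pigs within groups. Pigs with more ESRRA had more slow-fibre RNA, and r was positive with each of the 4 mitochondrial lists as well. On TMM-scaled levels no other regulator had a relation that passed, and differences between regulators were not tested.

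ESRRA had the highest r with the slow-fibre contractile list, at 0.91 (exact permutation p = 0.0021, adjusted p = 0.0494 over 24 relations; Spearman's rho 0.89, exact p = 0.0036). This was the 1 relation of 24 that passed. Within the 7 fibre1 pigs alone r was 0.87 (exact p = 0.0264, adjusted p = 0.317). Fibre1 pig 1 and fibre2B pig 10 were the highest of their groups in both measures, and the slow-fibre mean of fibre1 pig 1 was 10.3 on the log2 CPM scale against a range of 8.24 to 9.18 in the other fibre1 pigs. Without these 2 pigs, the farthest from the median of the list, r was 0.70 (exact p = 0.0921), so the call rests on them. Leaving out single pigs kept r between 0.85 and 0.96. The call held without fibre1 pig 5 (adjusted p = 0.0375) or pig 17 (0.0132) and was lost without any other pig (0.0528 to 0.240). After regression on the share taken by the 10 most abundant genes, r was 0.91 (adjusted p = 0.0135). The call was also lost without fibre1 pigs 5 and 6 together (0.125), with DESeq2 size factors (0.0581) and with summed CPM (0.140).

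The relations of ESRRA to the 4 mitochondrial lists were positive, and by Pearson's r on TMM-scaled levels they did not pass over 24 relations. By Spearman's rho that with the fatty acid list passed (adjusted p = 0.0436). With library totals only all 4 mitochondrial lists passed, with r of 0.82 to 0.88 (adjusted p of 0.0171 to 0.0279). A scale left uncorrected in a pig enters both the regulator and the list. With nuclear oxidative phosphorylation genes r also moved from 0.18 to 0.55 for FNIP1, from 0.044 to 0.45 for PPARGC1A and from -0.065 to -0.39 for PPARD. The part of the scaling in these r was not tested. With the fatty acid oxidation list r was 0.79 (exact p = 0.0049, adjusted p = 0.0593; rho 0.77, exact p = 0.0033), and 0.39 without fibre1 pig 1 and fibre2B pig 14, so this one rests on those pigs. With the citrate cycle list r was 0.75 (exact p = 0.018, adjusted p = 0.138; rho 0.73, exact p = 0.0266), and 0.46 without the same 2 pigs. With nuclear oxidative phosphorylation genes r was 0.73 (exact p = 0.0231, adjusted p = 0.138; rho 0.79, exact p = 0.0175), and 0.70 without fibre1 pig 5 and fibre2B pig 10. With the mitochondrially encoded genes r was 0.65 (exact p = 0.0635, adjusted p = 0.190; rho 0.74, exact p = 0.0382), and 0.77 without fibre1 pig 12 and fibre2B pig 16. With the glycolytic and fast-fibre list r was -0.15 (exact p = 0.671, adjusted p = 0.848; rho -0.0727, exact p = 0.836), and 0.0829 without fibre1 pigs 5 and 6. Taken gene by gene as a description, ESRRA had a positive r with 39 of 43 oxidative phosphorylation genes (median 0.63), 18 of 18 citrate cycle genes (0.60) and 7 of 7 slow-fibre genes (0.82). Over all other genes tested the median was 0.021, with 51.8% positive.

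**Figure D4:**
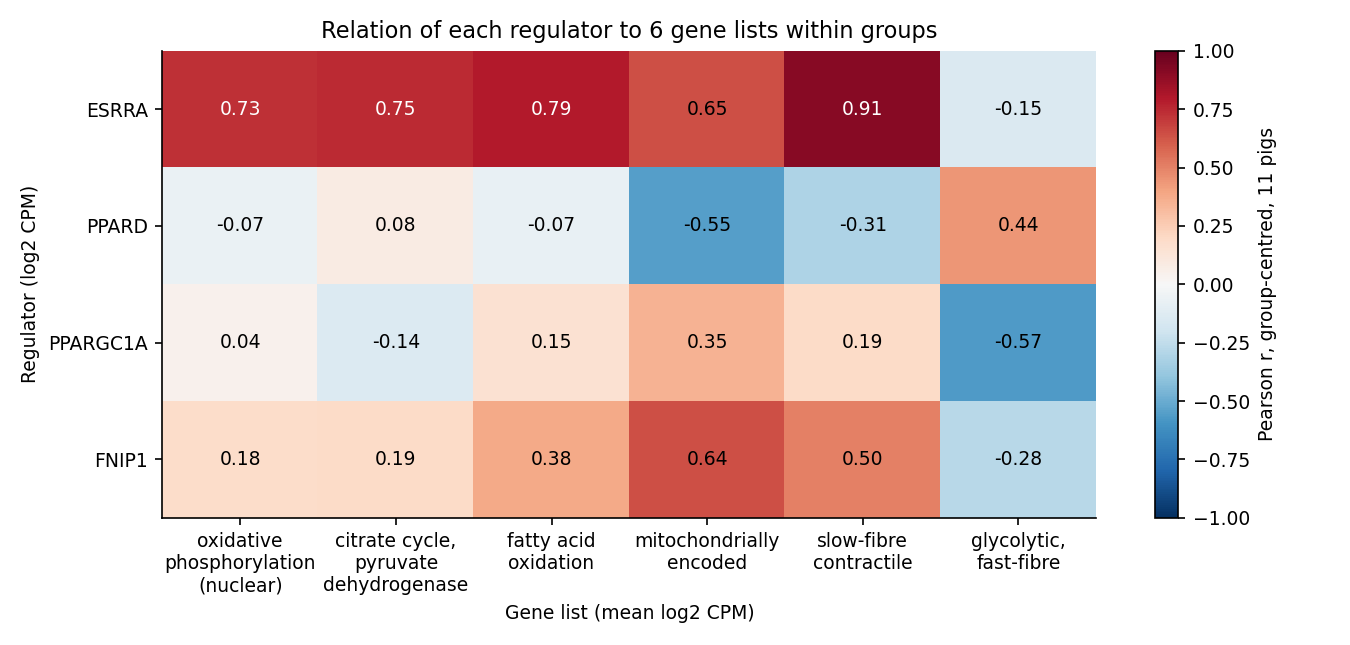
Pearson r over 11 pigs, after subtraction of the group means, between the log2 CPM of each regulator (rows) and the mean log2 CPM of 6 gene lists (columns), with colour from -1 to 1. The ESRRA row is positive for the 5 slow and oxidative lists, from 0.65 to 0.91, and the largest value in the PPARD row is 0.44, with the glycolytic and fast-fibre list.

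PPARD, the other receptor, was set against the same 6 lists. With the slow-fibre list its r was -0.31 (exact p = 0.373, adjusted p = 0.689; rho -0.33, exact p = 0.315), -0.68 without fibre1 pig 1 and fibre2B pig 10, and 0.12 without fibre1 pigs 5 and 6. With the nuclear oxidative phosphorylation, citrate cycle and fatty acid lists its r lay between -0.0748 and 0.0816, and between -0.55 and 0.15 without the 2 farthest pigs of each. With the glycolytic and fast-fibre list r was 0.44 (exact p = 0.260, adjusted p = 0.567; rho 0.37, exact p = 0.324), and it turned to -0.48 without fibre1 pigs 5 and 6. With the mitochondrially encoded genes r was -0.55 (exact p = 0.0571, adjusted p = 0.190; rho -0.63, exact p = 0.0299), -0.56 without the 2 farthest pigs and -0.22 without fibre1 pigs 5 and 6, and each of the 13 genes had a negative r with it. None of these passed. After regression on the share taken by the 10 most abundant genes, r was -0.31 with the mitochondrially encoded list and -0.0219 with the glycolytic and fast-fibre list. Without the mitochondrially encoded and the 10 most abundant genes, 11 of the 15 glycolytic and fast-fibre genes were left. The share thus holds genes of that list, and regressing it out takes away part of the list's own signal.

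Over all 11 pigs PPARGC1A had its largest r, -0.57, with the glycolytic and fast-fibre list (exact p = 0.0625, adjusted p = 0.190; rho -0.53, exact p = 0.0917), and -0.71 without fibre1 pigs 5 and 6. After regression on that share it was -0.30. With the 5 slow and oxidative lists r lay between -0.14 and 0.35, and between -0.13 and 0.16 without the 2 farthest pigs of each. Without fibre2B pig 14, which had the highest PPARGC1A level, r was 0.76 with the mitochondrially encoded genes (exact p = 0.0273, adjusted p = 0.201), 0.64 with the slow-fibre list and 0.54 with the fatty acid list, and -0.45 with the glycolytic and fast-fibre list. Without fibre1 pig 1 it was -0.46 with the citrate cycle list and -0.45 with the fatty acid list, so these values rest on single pigs. Its counting error is as large as its spread in fibre1, so a relation could be missed at this depth.

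FNIP1, though lower in the group with more slow fibres, had a positive r with all 5 slow and oxidative lists within groups, from 0.18 to 0.64. The largest was with the mitochondrially encoded genes (0.64, exact p = 0.0466, adjusted p = 0.190; rho 0.60, exact p = 0.0691), and 0.62 without fibre1 pig 12 and fibre2B pig 16. Without the 2 farthest pigs of each, r with the other 4 lists lay between -0.15 and 0.55. None passed over 24 relations, but with library totals only the r with the mitochondrially encoded genes was 0.79 and passed (adjusted p = 0.0322). The part of the scaling in that r was not tested.

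**Figure D5:**
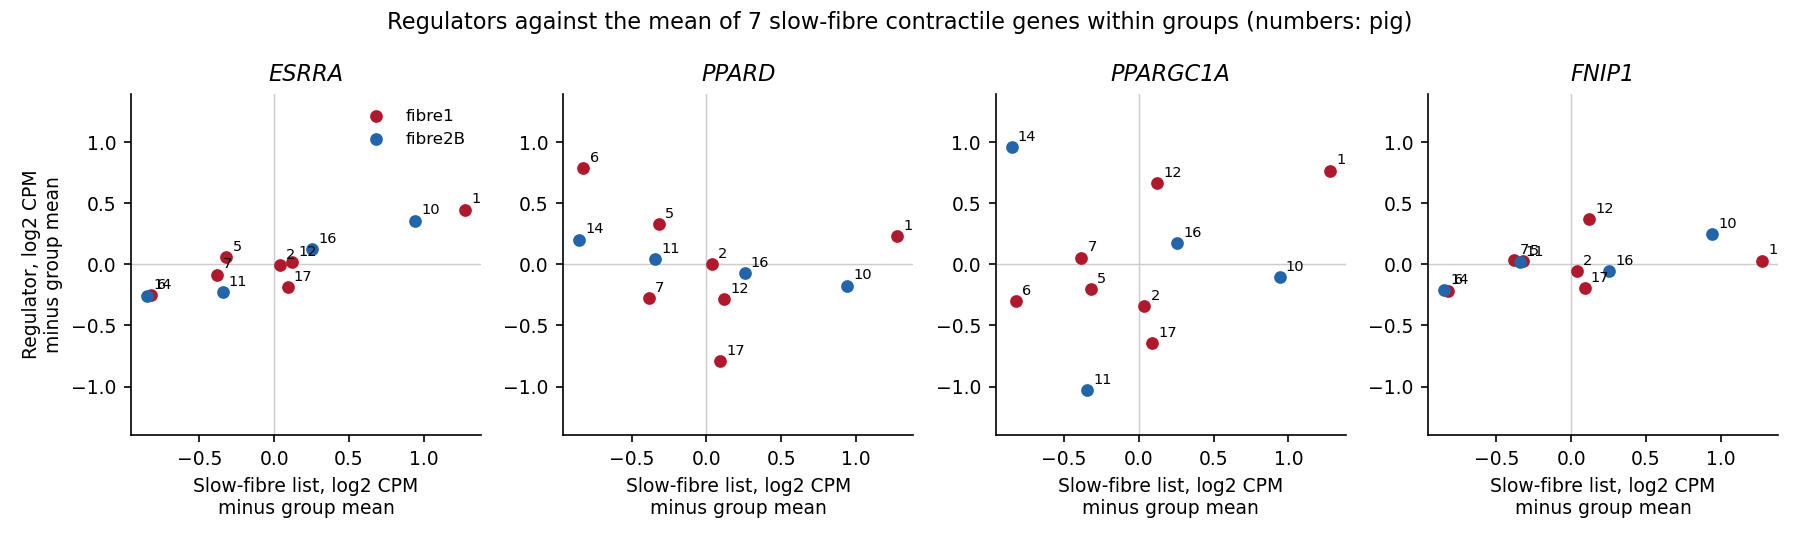
Log2 CPM of each regulator (vertical axes, same range) against the mean log2 CPM of 7 slow-fibre contractile genes (horizontal axes), both minus the group mean, with 1 point per pig labelled by number. ESRRA rises along the axis in pigs of both groups (r = 0.91), with fibre1 pig 1 and fibre2B pig 10 at the upper end, while PPARGC1A scatters most.

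Between the regulators themselves and with the share taken by the 10 most abundant genes, 10 further relations were computed in the same way. Over the 11 pigs the pair with the largest r was ESRRA and FNIP1, at 0.55 (exact p = 0.0931, adjusted p = 0.466 over 10 relations; rho 0.66, exact p = 0.0344), and 0.60 without the 2 farthest pigs. The 2 receptors, ESRRA and PPARD, had an r of -0.0419 (exact p = 0.901, adjusted p = 0.901; rho -0.11, exact p = 0.746), and 0.0192 without the 2 farthest pigs. ESRRA and its coactivator PPARGC1A had 0.35 (exact p = 0.361, adjusted p = 0.706; rho 0.29, exact p = 0.464), and 0.66 without the 2 farthest pigs. In fibre1 alone this pair had 0.74 (exact p = 0.0427, unadjusted). PPARGC1A and FNIP1 had 0.20 (exact p = 0.566, adjusted p = 0.707), -0.0561 without the 2 farthest pigs and 0.76 in fibre1 alone (exact p = 0.0347, unadjusted). No other of the 10 had an exact p under 0.05 in fibre1 alone, where counting error is as large as the spread of PPARGC1A. With the share taken by the 10 most abundant genes r was -0.43 for ESRRA, 0.54 for PPARD, -0.51 for PPARGC1A and -0.26 for FNIP1 (exact p of 0.178, 0.192, 0.0655 and 0.495, adjusted p of 0.480, 0.480, 0.466 and 0.706; rho -0.29, 0.55, -0.55 and -0.37, with exact p of 0.347, 0.147, 0.0637 and 0.289). Without the 2 pigs farthest from the median these r were -0.63, -0.38, -0.74 and -0.064, so that of PPARD rests on those pigs.

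The genes most like each regulator were found by r of group-centred log2 CPM over the 11 pigs, among 4568 or 4569 named genes with a mean of 5 CPM or more, as a description. The genes named are the extremes of that many r over 11 pigs, so the size of their r is no sign of a link. Among those closest to ESRRA were BCKDHB, a mitochondrial enzyme of branched-chain amino acid breakdown (0.91), the muscle scaffold gene CMYA5 (0.90) and TNNC1, slow troponin C (0.89). The most opposed were TXNL1, of the thioredoxin family (-0.92), and TTI2 (-0.91). Of these TNNC1 belongs to the slow-fibre list.

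Closest to PPARD were the ubiquitin ligase gene UBR4 (0.93), TOMM34 (0.92), GTPBP4 of ribosome assembly (0.91) and SPR, an enzyme of tetrahydrobiopterin synthesis (0.91), with CRLF3 (-0.94) and CPNE3 (-0.92) most opposed. Closest to PPARGC1A were the peroxisomal carrier gene SLC25A17 (0.91), the kinase gene ROCK2 (0.87), TIMM8A of mitochondrial protein import (0.86) and TRAPPC13 (0.85). In fibre1 the SD of log2 CPM of PPARGC1A was 0.53 where counting alone gives 0.51, so little can be read from its likeness to any gene. The most opposed to PPARGC1A were HNRNPD, an RNA-binding protein gene (-0.93), and TFE3 (-0.91), a transcription factor gene. Closest to FNIP1 were NSUN3, which modifies a mitochondrial transfer RNA (0.93), the ion cotransporter gene SLC12A2 (0.87), ILRUN (0.87) and DAZAP1 (0.86), with PPP2R2A, a phosphatase subunit (-0.97), and the ubiquitin ligase subunit gene BTRC (-0.95) most opposed.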

How the data were processed

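RNA of 11 pigs (7 fibre1, 4 fibre2B) was sequenced from 300 ng of total RNA per library, per the labels' protocols, in 50 single-end cycles and 5 technical repetitions, per the series' design text. The authors deposited expected counts (an estimated count per gene and per isoform), not normalized, with 1 column per pig and no decimals. The submitters' processing notes list CASAVA 1.8.2, FastQC, STAR, RSEM, edgeR, DESeq2 and, as genome build, Sscrofa10.2, with no roles given. Columns were joined to pigs by the number in the sample titles. There were 0 columns of other samples. A gene ID table gave symbols for 11804 of 25322 rows, so many list members have no row here. Isoforms were joined to genes by their counts.

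Genes were tested in all 11 pigs with edgeR 4.0.16 in R 4.3.3 (TMM factors, filterByExpr, quasi-likelihood F test, no covariate, Benjamini-Hochberg adjusted p of 0.05 over 11329 genes). Expected counts are rounded for this test, which changed nothing. Standard errors were taken as the absolute log2 fold change over the root of F, and the biological coefficient of variation was 29.8%. Relations across pigs used log2 CPM with a prior count of 2, in Python 3.11.15 with NumPy 2.4.6. On simulated data of 11156 genes the test recovered 39.4% of genes changed 2-fold and 89.9% of those changed 4-fold. Of the genes it called there, 6.57% were unchanged ones. The labels say that each sample is a pig of its own, so replicates are animals. The regulators and the gene lists were chosen with earlier results of these data known. Named were the 4 regulators and their paralogs, up to 3 genes of each list with the smallest p, and the 4 most and 2 least similar genes per regulator. Results for 2 such genes are not reported here. The alternatives tried were other scaling factors, filters, DESeq2 1.42.0, limma-voom (limma 3.58.1), a covariate and leaving out pigs. Coordinates and sequences are not used here.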

Additional observations from a re-analysis of the deposited data

Results flagged for a closer look

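In 150 sets of values (a gene, ratio or list mean in 1 group of 7 or 4 pigs) 14 held a pig that stood apart from the others by Dixon's ratio of the gap to the range, where chance gives about 1 in 20. Of the regulators, ESRRA stood apart in fibre1 pig 1, with 122 CPM and the next pig at 93.2, and FNIP1 in fibre1 pig 12, with 33.5 CPM and the next at 26.5. Fibre1 pig 1 was also the highest by far for TNNT1 (8674 CPM), TNNI1 (5998 CPM), TNNC1 (8130 CPM), CMYA5 (670.4 CPM) and the mean log2 CPM of the fatty acid oxidation list (6.53). Fibre1 pig 12 was so for MEF2C (47.9 CPM), SLC12A2 (13.4 CPM) and DAZAP1 (51.9 CPM). In fibre2B it was pig 14 for PPRC1 (11.5 CPM) and PDK4 (707 CPM), pig 10 for ANKRD2 (50.9 CPM) and pig 11 for SPR (29.6 CPM). SLC12A2, DAZAP1, CMYA5, TNNC1 and SPR are named for their likeness to a regulator, and the part of these single pigs in that likeness was not tested.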

How the results depend on the processing

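The log2 fold changes of ESRRA, PPARD and FNIP1 kept their direction in all 23 alternatives run and moved by less than the SD between pigs. That of PPARGC1A did so in the 20 that gave a value, since it failed the filter without fibre1 pig 1 or 12 and at 1 CPM in 4 pigs. No paired analysis was possible because the groups share no replicate number. EdgeR called 1021 genes (496 higher in fibre1, 525 higher in fibre2B), 157 with library totals only (53 and 104), 460 with the share taken by the 10 most abundant genes as covariate and 28 without fibre1 pigs 5 and 6, and DESeq2 called 1740. Leaving out each pig gave 0 to 1548. The 0 came without fibre2B pig 14 (2436 at an unadjusted p under 0.05), where DESeq2 called 776 and limma-voom 3, fits chosen after seeing the data. Library totals shifted the median of all genes to -0.19, and against it ESRRA had 0.48 and FNIP1 -0.66. The relations past the threshold numbered 1 of 24 (5 unadjusted), 0 with DESeq2 size factors (4 unadjusted) or summed CPM (5), 6 with library totals only (5 of ESRRA, 1 of FNIP1), 2 with Spearman's rho (both of ESRRA), 2 without centring, 0 without fibre1 pigs 5 and 6 (4), and 0 to 2 without single pigs (3 to 7 unadjusted). The r of ESRRA with the glycolytic and fast-fibre list turned to 0.40 without centring, 0.44 with the share regressed out and 0.0829 without fibre1 pigs 5 and 6, and ran from -0.36 to 0.17 without single pigs. That share holds genes of this list, so regressing it out takes away part of the list's own signal. PPARG ran from -0.40 to 0.0314 without single pigs and turned to 0.0314 (edgeR), 0.0398 (DESeq2) and 0.0401 (limma-voom) without fibre2B pig 14, and PPRC1 to -0.0363 with library totals. The cause was not tested. Counting error limits PPARGC1A, ESRRB, ESRRG and PPARA, each with 96 counts or fewer in all pigs.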
